A study of Mus musculus with 20 samples.

Results

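The genes described here are 10 transcripts that mark the epithelium of the choroid plexus: Ttr, Kcne2, Cldn2, Folr1, Kl, Clic6, Aqp1, Slc4a5, Otx2 and Prlr. They were taken by symbol from a list of genes known for this tissue, and each had 1 identifier among the 57180 Ensembl identifiers of the count table. They were followed over the 4 groups of the study, and within groups as a measure of ventricular tissue in a punch. Poly(A)-selected, stranded RNA sequencing was done on punches microdissected from fresh mouse brains. There were 6 libraries of the paraventricular thalamic nucleus (PVT) from streptozotocin (STZ) mice, 4 of the PVT from control mice, 6 of the posterior insular cortex (pIC) from STZ mice and 4 of the pIC from control mice. STZ mice had received a single intraperitoneal dose of 200 mg/kg STZ, a toxin of pancreatic beta cells that makes mice diabetic and here served as a model of painful diabetic neuropathy. Control mice had received vehicle, and tissue of both was taken at week 7. The sources used here state neither strain, sex and age of the mice nor whether tissue of several mice was pooled. The labels do not state that the libraries of a group came from separate mice, so p-values measure the spread between these libraries.

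The choroid plexus is a folded, vascular tissue that hangs in the brain's ventricles and is covered by a single sheet of epithelial cells. These cells secrete cerebrospinal fluid by moving ions and water from blood to ventricle, seal the path between them with tight junctions, and carry vitamins and hormones into the fluid. The PVT lies under the roof of the third ventricle, where a choroid plexus is attached, whereas the insular cortex lies at the outer surface of the hemisphere.

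A library held 17.9 M to 25.5 M counts in total. Levels are CPM, counts per M of the library after scaling for composition with TMM over all 20 libraries. A few libraries stood apart in content. PVT control replicate 4 held 14300 CPM of 4 pituitary genes, against at most 3.36 CPM in any PVT STZ library. PVT STZ replicates 5 and 6 held the hypothalamic peptide transcript Pmch at 309 and 135 CPM, against 0.372 to 0.809 CPM in the 4 PVT control libraries. Values for the PVT without these 3 libraries are given beside the main groups of genes. Leaving them out does not make the remaining PVT libraries even in content. The hypothalamic transcript Oxt was at 124 CPM in PVT STZ replicate 4 and 0.12 CPM in PVT STZ replicate 1. It was at 129 CPM in PVT control replicate 3 and 0.651 CPM in PVT control replicate 2.

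The 10 genes were abundant in PVT punches and sparse in pIC punches. Every PVT library was above every pIC library for all 10 genes. How many of all genes separated the regions in this way was not counted, so how unusual this is cannot be judged. Together the genes made up 0.143% to 0.357% of all counts in PVT STZ libraries and 0.316% to 0.667% in PVT control libraries. The summed level was 6.48 to 145 CPM in pIC STZ libraries and 6.77 to 24.7 CPM in pIC control libraries. Ttr, which encodes transthyretin, the carrier of thyroid hormone and retinol-binding protein secreted into cerebrospinal fluid, gave 88.9% to 92.2% of the counts of the 10 genes in PVT libraries.

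**Figure D1:**
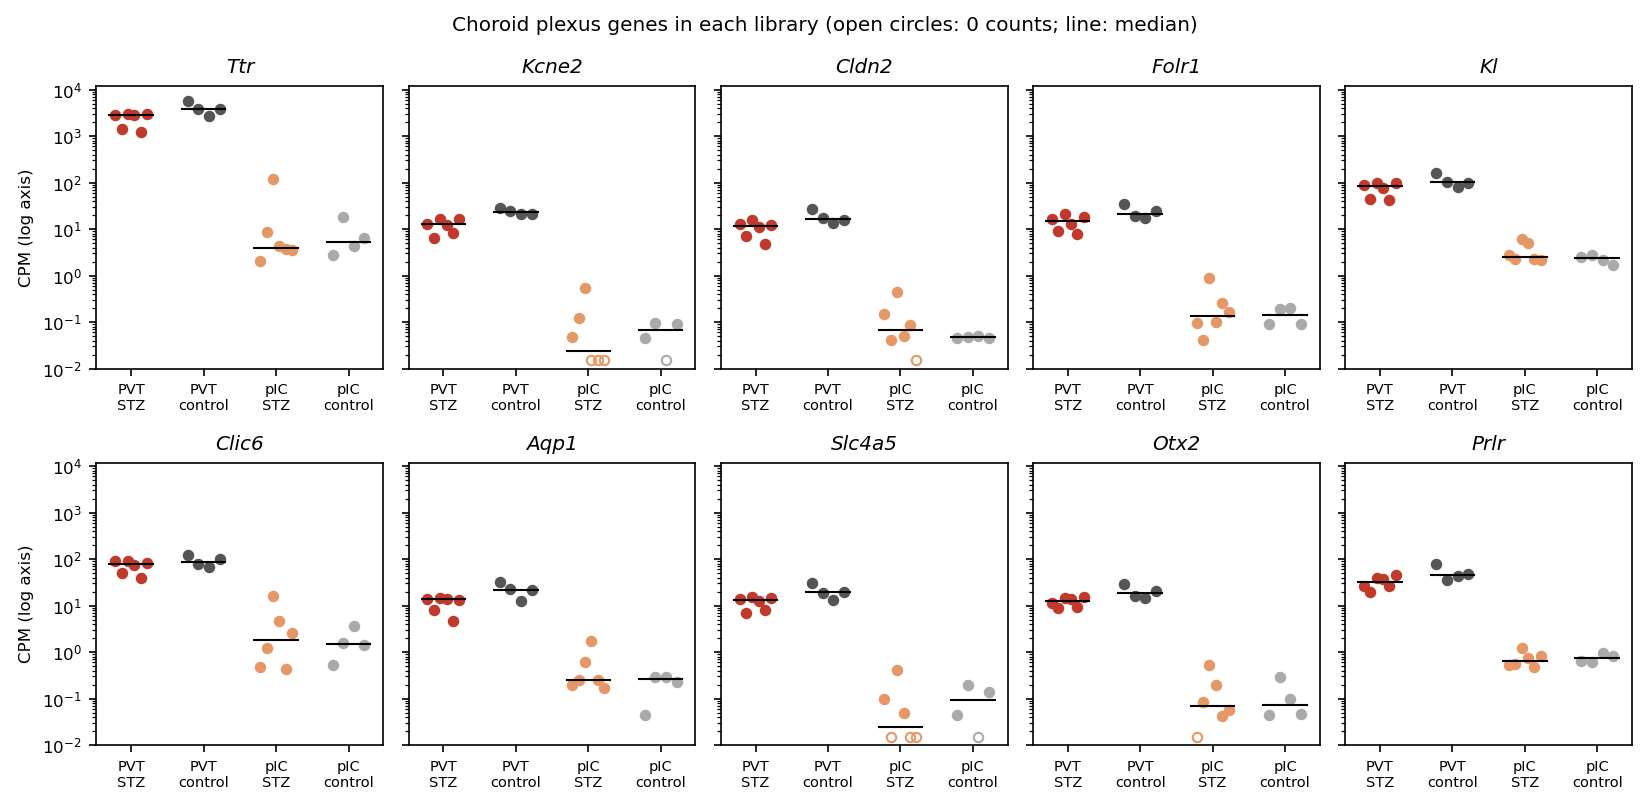
Level of each of the 10 choroid plexus genes in each library, in CPM on a log axis, with 1 panel for each gene. Points are libraries (6 STZ and 4 control in each region), lines are group medians and open circles are libraries with 0 counts. In each panel all 10 PVT libraries lie above all 10 pIC libraries, and 1 pIC STZ library has Ttr at 118 CPM.

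Within the PVT, the question was whether these genes differ between STZ and control mice. All 10 had a lower median in STZ than in control libraries, with log2 fold changes of −0.95 to −0.35, but none passed the test across all genes. In edgeR's quasi-likelihood test with Benjamini-Hochberg adjustment over 17076 genes, 0 of the 10 had an adjusted p under 0.05. Of all genes tested, 1.59% were called lower in STZ. At an unadjusted p under 0.05 there were 8 of the 10, against 17.8% of all genes in either direction. DESeq2 called 3, against 3.23% of all genes called lower by DESeq2. The 10 genes moved together from library to library, so these are not counts of independent genes. The median log2 fold change of the 10 genes was −0.73, and that of all genes tested was 0. Without the 3 libraries that stood apart the median of the 10 was −0.70, and 0 of the 10 were called by edgeR. In bulk punches, fewer epithelial cells and less RNA of these genes in each cell cannot be told apart.

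Ttr reached 1210, 2810 and 3070 CPM (lowest, median, highest) in the 6 PVT STZ libraries, against 5570, 3930, 2720 and 3910 CPM in the 4 PVT control libraries. The highest STZ libraries lay above the lowest control library, so the groups overlapped. The log2 fold change was −0.75 ± 0.298 (SE), with an adjusted p of 0.23 in edgeR. Without the 3 libraries that stood apart it was −0.69 (adjusted p = 0.332, edgeR).

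Among the genes of ion and water transport, Kcne2 separated the groups. Kcne2 encodes an accessory subunit of potassium channels in the apical membrane of the epithelium. Its lowest, median and highest levels were 6.46, 12.6 and 16.9 CPM in PVT STZ libraries, against 28.3, 24.3, 21.3 and 21.3 CPM in PVT control libraries. Every STZ library was below every control library, which held for 4.29% of all genes tested and for none of the other 9 genes. The log2 fold change was −0.95 ± 0.248 (SE). The adjusted p was 0.0872 in edgeR and 0.00639 in DESeq2. Without the 3 libraries that stood apart the log2 fold change was −1.01 (adjusted p = 0.164, edgeR).

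Aqp1, the water channel of the apical membrane, had 4.69, 13.5 and 14.5 CPM (lowest, median, highest) in PVT STZ libraries, against 31.9, 22.6, 12.7 and 21.4 CPM in PVT control libraries. Only control replicate 3 fell within the STZ range. The log2 fold change was −0.95 ± 0.322 (SE), with an adjusted p of 0.167 in edgeR and 0.0489 in DESeq2, and without the same 3 libraries −0.82 (adjusted p = 0.269, edgeR). Slc4a5, a sodium bicarbonate cotransporter, had 7.09, 13.2 and 15.6 CPM in PVT STZ libraries, against 30.1, 18.6, 13.4 and 20.0 CPM in PVT control libraries. Again control replicate 3 alone lay within the STZ range (log2 fold change −0.76 ± 0.264, adjusted p = 0.173, edgeR). Clic6, a member of the chloride intracellular channel family, had 39.4, 78.1 and 92.8 CPM in PVT STZ libraries, against 123, 77.0, 68.5 and 98.2 CPM in PVT control libraries. It overlapped broadly between groups and had the smallest difference of the 10 genes (log2 fold change −0.35 ± 0.257, adjusted p = 0.526, edgeR).

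The tight junction is represented by Cldn2, a claudin that forms pores for cations. Cldn2 had 4.73, 11.7 and 15.8 CPM in PVT STZ libraries, against 27.1, 17.6, 13.4 and 15.6 CPM in PVT control libraries. Its groups overlapped, with a log2 fold change of −0.77 ± 0.311 (SE) and an adjusted p of 0.234 in edgeR.

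Folr1, Kl and Prlr act at the cell surface as receptors or co-receptors. Folr1, the folate receptor that brings folate into cerebrospinal fluid, had 8.0, 14.7 and 21.3 CPM in PVT STZ libraries, against 34.5, 18.7, 17.2 and 24.1 CPM in PVT control libraries. Kl, or klotho, the co-receptor of the hormone FGF23, had 42.3, 83.6 and 100 CPM in PVT STZ libraries, against 159, 103, 82.4 and 100 CPM in PVT control libraries. Prlr, the prolactin receptor, had 19.5, 31.8 and 46.2 CPM in PVT STZ libraries, against 77.9, 36.0, 44.2 and 46.9 CPM in PVT control libraries. For each of the 3 genes PVT control replicate 1 was the highest library, and the remaining libraries overlapped. The log2 fold changes were −0.70 ± 0.294 for Folr1, −0.55 ± 0.284 for Kl and −0.65 ± 0.272 for Prlr (SE), with adjusted p of 0.249, 0.354 and 0.252 in edgeR.

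Otx2 encodes a homeodomain transcription factor needed for the choroid plexus to form. It had 8.87, 12.8 and 15 CPM in PVT STZ libraries, against 29.7, 16.3, 14.7 and 20.7 CPM in PVT control libraries. STZ replicate 6, at 15 CPM, was the only STZ library above the lowest control library. The log2 fold change was −0.72 ± 0.217 (SE), with an adjusted p of 0.125 in edgeR and 0.0315 in DESeq2, and without the same 3 libraries −0.71 (adjusted p = 0.261, edgeR).

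Windows around the starts of these genes were searched for the core motif of OTX2, TAATCC, on both strands (GGATTA on the reverse), a motif that overlaps no other one searched. The windows hold 250 bases before and 50 after a start in RefSeq, build GRCm38.p6, while the counts are on GRCm39. Windows were at hand for 7 of the 10 genes (not Ttr, Folr1 and Clic6), 13 in all. Only a window of Otx2 itself held the motif, with its first base 211 bases before the start, and 7.06% of 32851 windows of all genes held it. The window of Otx2 is chr14:48665060-48665359, minus strand. It is printed with the match in capitals, beside a window of Kcne2 (chr16:92292139-92292438, plus strand), the gene with the smallest p between STZ and control, and that of Kl (chr5:150952357-150952656, plus strand), the gene that followed Ttr most closely.
Otx2: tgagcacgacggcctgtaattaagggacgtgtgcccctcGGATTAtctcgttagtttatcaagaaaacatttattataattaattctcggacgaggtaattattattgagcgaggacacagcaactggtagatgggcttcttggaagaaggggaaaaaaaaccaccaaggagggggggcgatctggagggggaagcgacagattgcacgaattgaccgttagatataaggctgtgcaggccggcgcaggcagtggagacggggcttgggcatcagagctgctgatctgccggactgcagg
Kcne2: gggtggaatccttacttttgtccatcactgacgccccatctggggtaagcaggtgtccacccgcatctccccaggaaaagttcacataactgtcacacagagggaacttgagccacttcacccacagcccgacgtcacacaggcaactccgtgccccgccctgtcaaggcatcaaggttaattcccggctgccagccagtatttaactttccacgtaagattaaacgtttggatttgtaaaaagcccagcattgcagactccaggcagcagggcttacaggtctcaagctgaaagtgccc
Kl: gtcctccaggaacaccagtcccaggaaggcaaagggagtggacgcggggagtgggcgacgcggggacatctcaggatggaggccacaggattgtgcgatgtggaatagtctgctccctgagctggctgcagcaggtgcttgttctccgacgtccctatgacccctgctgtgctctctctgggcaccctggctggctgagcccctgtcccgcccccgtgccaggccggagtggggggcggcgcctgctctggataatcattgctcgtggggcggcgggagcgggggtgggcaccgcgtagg
The letters TAATCC and GGATTA are absent from the windows of Kcne2 and Kl. A match or its absence describes these letters in these windows alone.

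The same ordering of libraries recurred from gene to gene. PVT control replicate 1 was the highest of the 10 PVT libraries for all 10 genes, and PVT STZ replicates 2 and 5 were the lowest pair for all 10. From the lowest to the highest PVT library the level spanned 3.12-fold for Clic6, 4.61-fold for Ttr and 6.81-fold for Aqp1, the remaining 7 genes lying between these bounds. Of the single libraries left out in turn, control replicate 1 gave the smallest difference between STZ and control for 9 of the 10 genes, for example −0.55 for Ttr (adjusted p = 0.443, edgeR), −0.33 for Kl (adjusted p = 0.638, edgeR) and −0.17 for Clic6 (adjusted p = 0.811, edgeR). For Kcne2 it was STZ replicate 2, without which the value was −0.82.

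**Figure D2:**
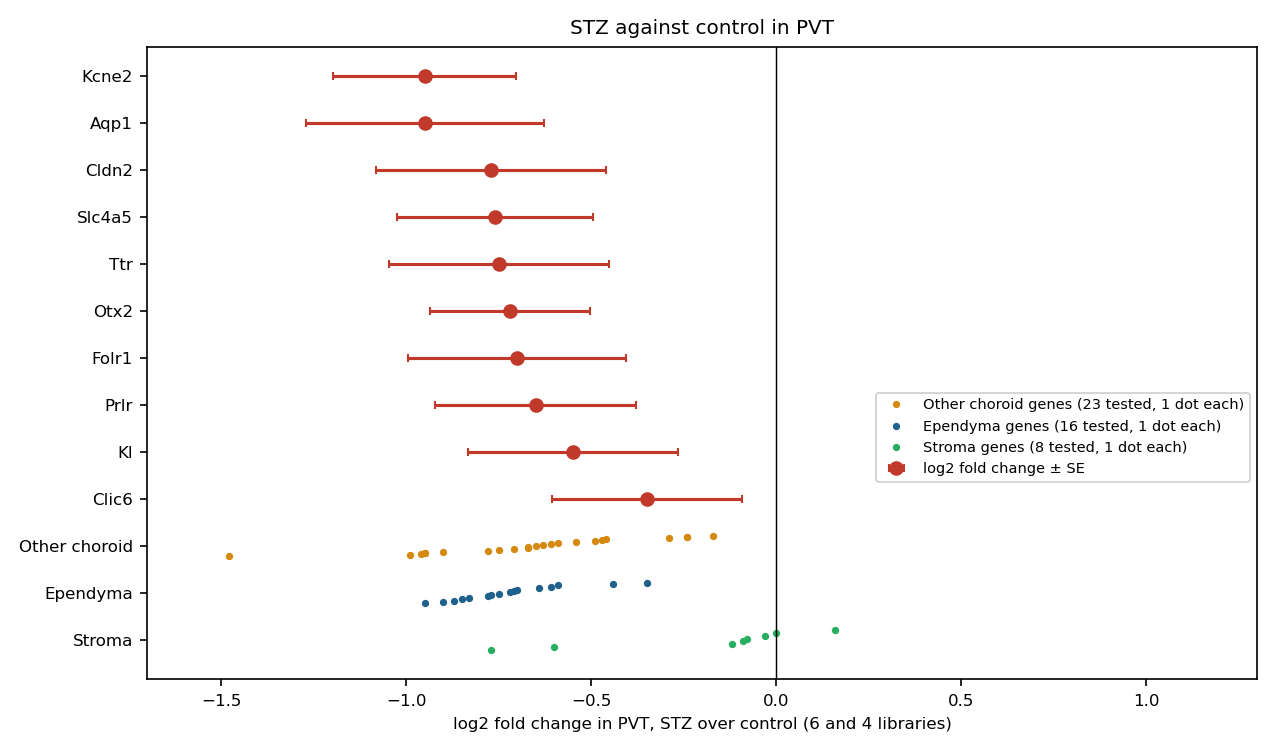
Log2 fold change of STZ over control in the PVT (6 and 4 libraries), with bars of 1 SE for each of the 10 choroid plexus genes. Dots below show further choroid plexus, ependyma and stroma genes, 1 dot for each tested gene. All 10 genes lie between −0.95 and −0.35, as do the 16 ependyma genes, while 6 of 8 stroma genes lie close to 0.

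Genes of neighbouring tissues were set beside these values. Of 24 further choroid plexus epithelium genes 23 had an identifier, and all 23 were tested. Lbp, which encodes a lipopolysaccharide-binding protein, was the 1 called, lower in STZ, against 1.59% of all genes tested called lower. Its log2 fold change was −0.95 ± 0.174 (SE, adjusted p = 0.0226, edgeR). Sostdc1, a secreted antagonist of BMP and Wnt signals, came next at −0.95 (adjusted p = 0.0517, edgeR), and then Trpv4, a cation channel, at −0.71 (adjusted p = 0.0566, edgeR). The 23 genes had a median log2 fold change of −0.65, and each value was negative. Without the 3 libraries that stood apart 0 of the 23 were called by edgeR, Lbp being at −0.84 (adjusted p = 0.102), and Lbp was also lost without control replicate 1 or 4 or STZ replicate 4.

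Ependyma, the ciliated lining of the ventricles, also differed between the groups. Its 16 genes summed to 94.2 to 130 CPM in PVT STZ libraries and to 153 to 207 CPM in PVT control libraries, with no overlap. How often sums of other genes leave no overlap was not counted. In edgeR's quasi-likelihood test 11 of the 16 were lower in STZ and 0 higher, against 1.59% of all genes tested called lower. The median log2 fold change of the 16 was −0.73. Examples are Rarres2, which encodes chemerin, at −0.75 ± 0.103 (SE, adjusted p = 0.00371), Tmem212, a transmembrane protein, at −0.72 ± 0.113 (SE, adjusted p = 0.00862) and Cfap126, a protein of motile cilia, at −0.87 ± 0.161 (SE, adjusted p = 0.0222). The number called depended on the libraries: it was 2 to 12 of the 16 when 1 library was left out, with 2 called when it was control replicate 1, 3 or 4, 3 when it was STZ replicate 1, 4 when it was STZ replicate 4 and 5 when it was STZ replicate 2 or 5. Without the 3 libraries that stood apart it was 2, Rarres2 and Tmem212 (adjusted p of 0.0306 and 0.0367, edgeR), and the median log2 fold change was −0.68. Rarres2 and Tmem212 were called whichever single library was left out, and Cfap126 was lost without control replicate 1, 3 or 4. The first 3 genes of the list (Foxj1, Ccdc153 and Tmem212) were all above 0 counts in the PVT groups, and their part in the lower medians of the choroid plexus genes was not tested. The choroid plexus genes summed to 1360 to 3390 CPM in PVT STZ libraries and to 3010 to 6110 CPM in PVT control libraries, with overlap.

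Connective tissue of the plexus and meninges was measured with 8 stroma genes, which summed to 105 to 125 CPM in PVT STZ libraries and to 105 to 148 CPM in PVT control libraries. Of the 8, Lum and Dcn, small proteoglycans of collagen fibres, were called lower in STZ, against 1.59% of all genes tested. They were at −0.77 ± 0.142 (SE, adjusted p = 0.0218, edgeR) and −0.60 ± 0.120 (SE, adjusted p = 0.0295, edgeR). Neither was called without the 3 libraries that stood apart (adjusted p of 0.109 for Lum and 0.11 for Dcn, edgeR). Lum was called in 7 of the 10 fits that left out 1 library, being lost without control replicate 1 or 4 or STZ replicate 4, while Dcn was called in 2 of them, those without control replicate 2 or STZ replicate 5. Pdgfra, a growth factor receptor of fibroblasts, had the next smallest p, with a log2 fold change of 0.16 (adjusted p = 0.258, edgeR). The 5 endothelial genes summed to 302 to 349 CPM in PVT STZ libraries and to 250 to 277 CPM in PVT control libraries, with no overlap. Of these, Slc2a1, the glucose transporter of brain capillaries, was higher in STZ by 0.45 ± 0.0788 (SE, adjusted p = 0.0173, edgeR), and none was lower. In all, 81 of 17076 genes tested were called higher. The 4 genes other than Slc2a1 summed to 121 to 149 CPM in PVT STZ libraries and to 125 to 135 CPM in PVT control libraries, which overlapped. Slc2a1 was at 0.44 without the 3 libraries that stood apart (adjusted p = 0.0157, edgeR) and was not called when only control replicate 4 was left out (adjusted p = 0.061, edgeR). Flt1, a receptor of vascular growth factor, was at 0.22 (adjusted p = 0.195, edgeR) and Cldn5, the claudin of the blood-brain barrier, at −0.32 (adjusted p = 0.308, edgeR). For fenestrated capillaries, the kind found in the choroid plexus, Plvap was at −0.80 (adjusted p = 0.142, edgeR) and Esm1 at −1.84 (adjusted p = 0.286, edgeR). PVT control replicate 4 was the highest PVT library for both, at 21.2 CPM of Plvap and 6.65 CPM of Esm1. Without the 3 libraries that stood apart Plvap was at −0.37 (adjusted p = 0.142, edgeR) and Esm1 at 0.31 (adjusted p = 0.828, edgeR).

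None of the genes listed for red cells (3 tested), habenula (7), thalamus (6) and hypothalamus (4) was called in edgeR. Their smallest adjusted p belonged to Hbb-bt (0.465), Nwd2 (0.546), Prkcd (0.375) and Pomc (0.127). The log2 fold change of Pomc was −6.14, with 833 CPM in PVT control replicate 4 and at most 8.44 CPM in PVT STZ libraries. Without the 3 libraries that stood apart it was 0.07 (adjusted p = 0.942, edgeR). The thalamus genes summed to 360 to 1410 CPM in PVT STZ libraries and to 357 to 811 CPM in PVT control libraries. The median log2 fold change was 0.42 for red cells, 0.79 for habenula, 0.32 for thalamus and 1.42 for hypothalamus genes. Without the 3 libraries that stood apart it was 0.2, −0.95, −0.97 and 0.29 in the same order, and none was called by edgeR. The sign for habenula and thalamus thus depended on these 3 libraries, so the lack of calls does not mean unchanged content.

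Over the 10 PVT libraries the other 9 genes followed Ttr. Pearson's r of log2 CPM with Ttr was 0.982 for Kl, 0.976 for Aqp1, 0.971 for Cldn2 and for Slc4a5, 0.952 for Folr1, 0.936 for Clic6, 0.923 for Kcne2, 0.919 for Otx2 and 0.834 for Prlr. Permutation p was 2e-05 to 0.00307 (two-sided, 100000 resamples). Spearman's rho was 0.758 to 0.964, with permutation p of 5e-05 to 0.0145. Adjusted over all genes tested in the PVT, 4 of the 9 (Kl, Aqp1, Cldn2 and Slc4a5) had a permutation p under 0.05, each 0.0478, while 0.141% of all genes had a positive r that passed. Adjusted p by permutation was 0.0585 for Folr1, 0.0868 for Kcne2 and Otx2, 0.0881 for Clic6 and 0.223 for Prlr. With Spearman's rho, 0 of the 9 passed the adjustment.

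Within the 6 PVT STZ libraries r was 0.912 to 0.986 for 8 of the 9 genes (exact permutation p of 0.00278 to 0.0333, unadjusted) and 0.767 for Prlr (exact permutation p = 0.0819). Adjusted over all genes, 0 of the 9 and 0 of 17075 genes passed in these 6 libraries. An exact permutation p of 6 libraries cannot fall below 0.00139, which leaves almost no room to pass, so this count decides nothing. The 2 libraries farthest from the median of Ttr were STZ replicates 5 and 2. Without them r was 0.732 for Prlr and 0.751 to 0.989 for the other 8, with permutation p of 0.0529 for Prlr and 0.000248 to 0.029 for the others, and 0 of the 9 passed the adjustment. Without the 3 libraries that stood apart in pituitary or hypothalamic transcripts r was 0.866 to 0.992, and 0 passed. The labels give no batch or date, so no values within batches can be given.

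**Figure D3:**
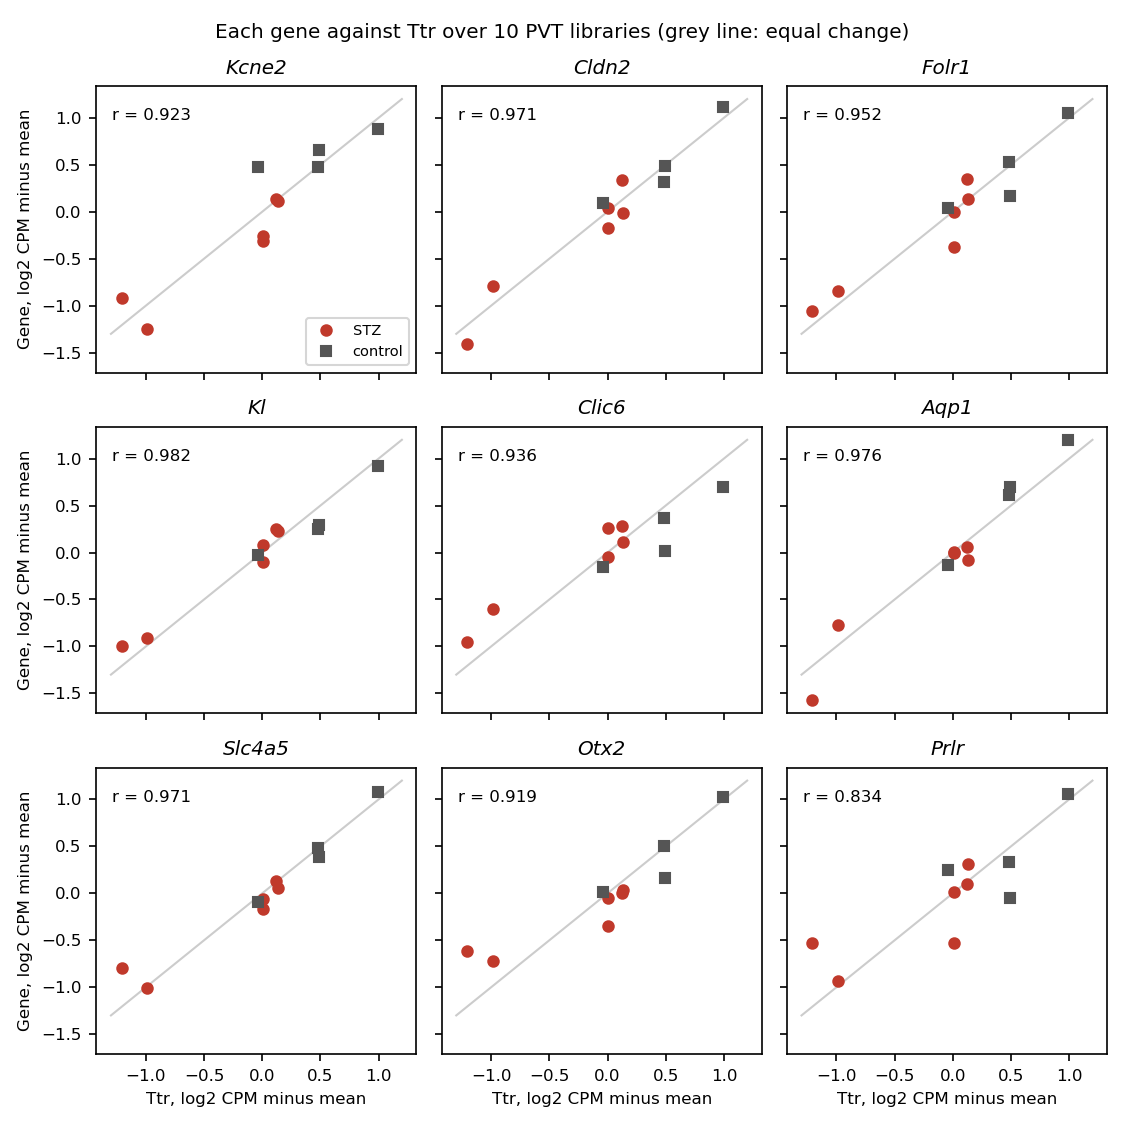
Each gene's log2 CPM against that of Ttr in the 10 PVT libraries, both minus their mean over these libraries, with circles for 6 STZ and squares for 4 control libraries and a grey line of equal change. Points run along the line for Kl, Aqp1, Cldn2 and Slc4a5 (r of 0.971 to 0.982) and scatter most for Prlr (r = 0.834).

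Other lists were ranked by the same measure. The median r with Ttr was 0.925 for the 23 further choroid plexus genes, 0.782 for the 16 ependyma genes, −0.027 for the 8 stroma genes, −0.464 for the 5 endothelial genes and 0.004 for all genes tested. The 8 genes most like Ttr outside the 10, among those with a mean of at least 1 CPM in the PVT, were Sema3b and Kcnj13 (r of 0.983 each), Calml4 and Tmem72 (0.973 each), Mfrp (0.969), Enpp2 (0.963), Sulf1 (0.959) and Col9a3 (0.958). Of these, 5 stood on the list of further choroid plexus genes, among them Kcnj13, an inwardly rectifying potassium channel, and Enpp2, the secreted lysophospholipase autotaxin. Sema3b, a secreted semaphorin, Sulf1, a sulfatase of heparan sulfate, and Col9a3, a chain of collagen IX, were on no list. Between STZ and control in the PVT, Kcnj13 had a log2 fold change of −0.99 (adjusted p = 0.136, edgeR) and Enpp2 −0.67 (adjusted p = 0.137, edgeR).

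Counts were next expressed per 1000 Ttr counts of the same library, so that what a gene shares with Ttr cancels. All these ratios share Ttr as their denominator. Over the 10 PVT libraries the ratio of Cldn2 spanned 3.91 to 5.2, that of Kl 25.7 to 35.0, that of Aqp1 3.88 to 5.78 and that of Slc4a5 4.51 to 6.78. Thus a level that spanned 3.75-fold for Kl and 5.72-fold for Cldn2 became a ratio that spanned 1.36-fold and 1.33-fold. Prlr kept the widest ratio, 9.15 to 21.3, a span of 2.33-fold, while Otx2 spanned 4.1 to 7.89, Kcne2 4.43 to 7.84 and Folr1 4.57 to 6.98.

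Clic6 was the gene whose ratio separated the groups. It was 26.3, 31.5 and 35.6 per 1000 Ttr counts (lowest, median, highest) in PVT STZ libraries, against 22.1, 19.6, 25.2 and 25.1 in PVT control libraries. All STZ libraries were above all control libraries, which held for 6.61% of all genes tested and for 1 of these 9 genes. With 9 genes, 1 is too few to set apart from that share. By CPM the log2 fold change was −0.75 for Ttr and −0.35 for Clic6, so the ratio to Ttr leans upward in STZ. Kcne2, which separated the groups by its CPM, overlapped by its ratio, with 4.43, 4.98 and 6.71 in PVT STZ libraries, against 5.08, 6.18, 7.84 and 5.46 in PVT control libraries. No test was made of these ratios.

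In the pIC, Ttr, Kl, Clic6 and Prlr had at least 10 counts in every library. The other 6 genes were near the limit of detection, with a median of at most 6 counts in either group. Of these, Folr1 and Aqp1 were also counted in every library, Aqp1 with up to 36 counts in STZ replicate 4. Ttr had 2.09, 8.84, 118, 4.27, 3.70 and 3.52 CPM in the 6 pIC STZ libraries, against 2.82, 18.6, 4.42 and 6.36 CPM in the 4 pIC control libraries. STZ replicate 3, with 2886 Ttr counts, stood far above the others, and control replicate 2 came next with 386. Kcne2 had 17 counts over the 6 pIC STZ libraries and 5 over the 4 pIC control libraries. Cldn2 had 18 and 4, Folr1 36 and 12, Aqp1 70 and 18, Slc4a5 13 and 8, and Otx2 21 and 10 counts over the same STZ and control libraries. Libraries with 0 counts occurred for Kcne2 and Slc4a5 (3 STZ and 1 control each) and for Cldn2 and Otx2 (1 STZ each). A count of 0 allows up to 3 counts, which is 0.125 to 0.168 CPM in these libraries. Intervals and limits of this kind cover counting error alone.

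These 6 genes did not pass the filter on low counts in the pIC, and 4 were tested between STZ and control. Kl had 2.18, 2.54 and 6.27 CPM (lowest, median, highest) in pIC STZ libraries, against 2.47, 2.84, 2.21 and 1.66 CPM in pIC control libraries (log2 fold change 0.59 ± 0.332, SE, adjusted p = 0.542, edgeR). Clic6 had 0.426, 1.86 and 16.0 CPM in pIC STZ libraries, against 0.538, 1.59, 3.68 and 1.43 CPM in pIC control libraries (log2 fold change 1.24 ± 1.10, SE, adjusted p = 0.735, edgeR). The control values of Clic6 lay inside the STZ range, and for Kl control replicate 4 lay below it. Prlr had 0.468, 0.639 and 1.23 CPM in pIC STZ libraries, against 0.63, 0.63, 0.93 and 0.83 CPM in pIC control libraries (log2 fold change −0.06 ± 0.301, SE, adjusted p = 0.964, edgeR). The log2 fold change of Ttr was 1.57 ± 1.38 (SE, adjusted p = 0.734, edgeR), and without STZ replicate 3 it was −0.83 (adjusted p = 0.675, edgeR), while that of Clic6 was then 0.0. None of the 4 was called by edgeR, none had an unadjusted p under 0.05 and DESeq2 called 0, against 1.4% of 16189 genes called in either direction by edgeR.

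STZ replicate 3 was the highest of the 10 pIC libraries for 9 of the 10 genes, Aqp1 being highest in STZ replicate 4 at 1.77 CPM. Of the ependyma genes 8 of the 16 were also highest in STZ replicate 3. It held 158 counts of Foxj1, 32 of Ccdc153 and 19 of Tmem212, against at most 125, 18 and 5 in the other pIC libraries. Rarres2, Dynlrb2, Hydin, Rsph1, Tekt1, Dnah11, Pifo and Fam183b were higher in another pIC library. The share of all genes that were highest in STZ replicate 3 was not counted. The ependyma sum was 21.6 CPM there, at most 14.3 CPM in the other pIC STZ libraries and at most 14.0 CPM in pIC control libraries, and its part in the values of this library was not tested. In replicate 3 the counts per 1000 Ttr counts were 4.5 for Kcne2, 5.2 for Aqp1, 4.5 for Otx2 and 10.4 for Prlr, which lie within the ranges of the PVT libraries. Cldn2 at 3.81 and Slc4a5 at 3.47 lay below those ranges, and Folr1 at 7.62 above. These rest on 10 to 30 counts each. Kl, at 53.0, and Clic6, at 135, lay above the PVT ranges, with 153 and 391 counts. In the other 9 pIC libraries pooled the ratios were 427 for Kl, 289 for Clic6, 110 for Prlr, 62.4 for Aqp1, 22.2 for Folr1, 15.4 for Otx2, 9.41 for Cldn2 and for Slc4a5, and 7.7 for Kcne2. For Kl, Clic6, Prlr, Aqp1, Folr1 and Otx2 the exact (Clopper-Pearson) 95% interval of the pooled ratio, which covers counting error alone, lay above the PVT range. For Cldn2 and Slc4a5, on 11 counts each, the interval of 4.68 to 16.9 reached the PVT ranges, as did that of Kcne2 on 9 counts (3.51 to 14.7).

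**Figure D4:**
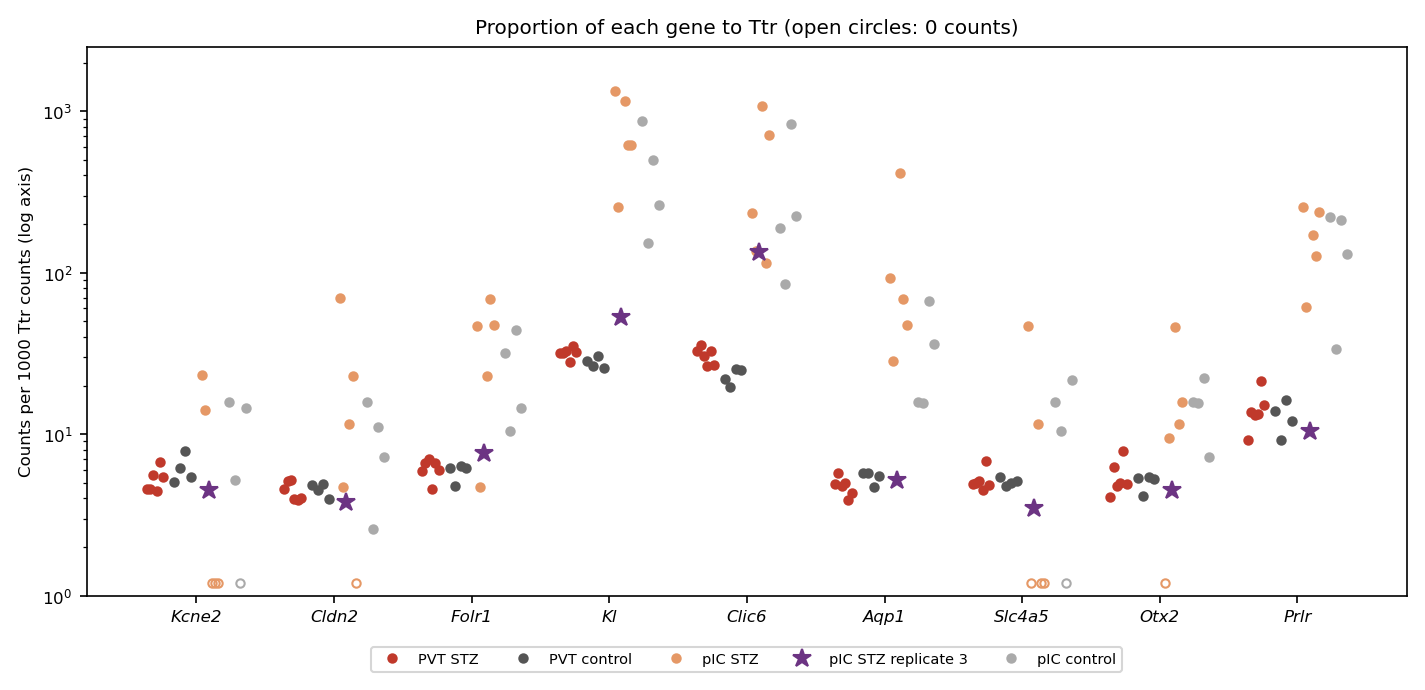
Counts of each gene per 1000 Ttr counts of the same library, on a log axis, for PVT STZ, PVT control, pIC STZ and pIC control libraries, with pIC STZ replicate 3 as a star and libraries with 0 counts as open circles. PVT libraries lie in narrow bands (3.91 to 5.2 for Cldn2). Most pIC libraries scatter higher, except for Kcne2 and Slc4a5, where several have 0 counts. The star lies in the PVT band for Kcne2, Aqp1, Otx2 and Prlr.

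Between regions, the size of the difference was measured in each treatment group against a minimum fold of 2 (glmTreat in edgeR, Benjamini-Hochberg adjustment). Kcne2, Cldn2, Folr1, Aqp1, Slc4a5 and Otx2 passed the filter through their level in the PVT, so their differences describe how far the regions lie apart and are not counted as support. In STZ mice the log2 difference of PVT over pIC was 6.67 ± 1.12 for Ttr (SE, adjusted p = 0.00411, edgeR), 4.45 ± 0.347 for Kl (SE, adjusted p = 2e-05, edgeR), 4.07 ± 0.696 for Clic6 (SE, adjusted p = 0.00755, edgeR) and 5.48 ± 0.286 for Prlr (SE, adjusted p = 1.24e-06, edgeR). In control mice it was 8.97 ± 0.767 for Ttr (SE, adjusted p = 0.00045, edgeR), 5.60 ± 0.261 for Kl (SE, adjusted p = 5.82e-06, edgeR), 5.68 ± 0.450 for Clic6 (SE, adjusted p = 0.000304, edgeR) and 6.08 ± 0.321 for Prlr (SE, adjusted p = 1.02e-05, edgeR). All 4 were higher in the PVT in both treatment groups, as were 3.1% of the genes tested in STZ mice and 4.7% of those tested in control mice.

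Of the 6 genes near 0 in the pIC, the log2 difference in STZ mice was 6.51 for Kcne2, 6.24 for Cldn2, 5.70 for Folr1, 4.40 for Aqp1, 6.85 for Slc4a5 and 6.22 for Otx2. In control mice the same difference was 7.33 for Folr1, 6.67 for Aqp1, 7.68 for Slc4a5 and 7.36 for Otx2, with Kcne2 and Cldn2 above 8. Without pIC STZ replicate 3 the difference in STZ mice was 9.04 for Ttr (adjusted p = 2.43e-06, edgeR) and 5.32 for Clic6 (adjusted p = 0.000122, edgeR).

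Whether STZ acted differently in the PVT and in the pIC was tested as an interaction of treatment with region in 1 fit of all 20 libraries. It was negative for all 10 genes, from −2.31 ± 1.3 (SE) for Ttr to −0.60 ± 0.507 (SE) for Prlr, and 0 of the 10 passed edgeR's quasi-likelihood test, with adjusted p of 1 for each. At an unadjusted p under 0.05 there were 2, Kl and Aqp1, against 4.02% of all genes, and DESeq2 called 0 of the 10. Aqp1 and the other 5 genes near 0 in the pIC entered this fit through their level in the PVT. Of all 17427 genes tested, 0.0% passed. Without pIC STZ replicate 3 the interaction was 0.08 for Ttr and 0.79 for Slc4a5 (adjusted p of 1 in edgeR for both). An effect of STZ that is unlike in PVT and pIC was thus not detectable for these genes at this number of libraries.

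Libraries of both regions carry the same labels, C1 to C4 for control and P1 to P6 for STZ, although the labels do not state that a label is a mouse. No relation was detected between Ttr in the PVT and Ttr in the pIC of the same label. Over the 10 labels Pearson's r of log2 CPM was 0.048 (permutation p = 0.891) and Spearman's rho 0.03 (permutation p = 0.946). Among the 6 STZ labels r was 0.182 (exact permutation p = 0.807). Without the 2 labels farthest in PVT Ttr r was −0.06 (permutation p = 0.887), and without label P3, the pIC library with 118 CPM of Ttr, it was −0.014 (permutation p = 0.97).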

How the data were processed

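Poly(A) RNA of 20 tissue libraries was sequenced, and the authors deposited raw counts for 57180 Ensembl identifiers, 1 column for each library, of which 51884 matched a symbol. The build was GRCm39 (mm39), per the submitters' processing notes. Aligner, counter and annotation: not given in the sources used here. There were 0 columns of no sample. Groups came from the labels.

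The 10 genes, the other gene lists and the tests were chosen with earlier results of these data known. Each region was fitted in edgeR 4.0.16 (R 4.3.3) with TMM scaling and the robust quasi-likelihood test, after filterByExpr with a minimum count of 10 and a minimum total of 15. PVT and pIC were set against each other with glmTreat (minimum fold 2), and the interaction used all 20 libraries. Calls had a Benjamini-Hochberg adjusted p under 0.05 over all genes tested. Each SE was worked back from the edgeR fit. It is the absolute log2 fold change over the square root of the quasi-likelihood F statistic against no change. Log2 CPM for correlations used a prior count of 2, with permutation p of 100000 resamples (Python 3.11.15, numpy 2.4.6). The edgeR fits were tested on simulated counts of the same design, and the correlation on simulated normal values for 10 libraries. The other methods were not tested on simulated data.

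From each other list up to 3 genes with the smallest p in the PVT were named, and the 8 genes most like Ttr among those with an established symbol. Genes of low count, such as these in the pIC, are limited by depth. Counts of no 2 libraries of a group agreed within sampling noise (lowest chi-square per degree of freedom 3.79). Alternatives were other scalings, no filter, DESeq2 1.42.0, a block, all libraries in 1 fit, leaving out each library, and, chosen after seeing the data, leaving out 3 PVT libraries.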

Additional observations from a re-analysis of the deposited data

Results flagged for a closer look

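Of 40 combinations of gene and group, 8 had a library far from the others of its group by Dixon's criterion, all among the 6 pIC STZ libraries. Chance alone flags about 1 in 20 groups of normally distributed values, and the genes are not independent. The rate for CPM that rest on few counts, as for most genes in the pIC, was not worked out. In pIC STZ replicate 3 Ttr was at 118 CPM, with the next library at 8.84 CPM, and Clic6 at 16.0 CPM, with the next at 4.56 CPM. In the same library Kcne2 was at 0.533, Cldn2 at 0.451, Folr1 at 0.902, Slc4a5 at 0.41 and Otx2 at 0.533 CPM, with the next libraries at 0.125, 0.146, 0.255, 0.0974 and 0.196 CPM. In pIC STZ replicate 4 Aqp1 was at 1.77 CPM, with the next library at 0.615 CPM.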

How the results depend on the processing

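In PVT STZ against control 0 of the 10 genes were called under every scaling, filter, block and left-out library tried, and DESeq2 called 3 (Kcne2, Otx2 and Aqp1). The signs of all 10 were kept, Ttr running from −0.90 to −0.55 and Kcne2 from −1.07 to −0.82. Genes called in all numbered 353 (81 higher, 272 lower), 904 in DESeq2 (353 higher, 551 lower), 679 with all libraries in 1 fit (213 higher, 466 lower), 474 with upper quartile scaling (58 higher, 416 lower), 146 without the 3 libraries that stood apart and 143 to 343 without 1 library. In the pIC 0 were called throughout. Ttr ran from −0.83 (without STZ replicate 3) to 2.39 and Prlr from −0.29 to 0.06 without 1 library. Prlr was at 0.06 without control replicate 3, 0.01 without STZ replicate 1 or 2 and 0.05 without STZ replicate 5. Genes called there numbered 226, 468 in DESeq2 and 128 to 272 without 1 library. Between regions Ttr, Kl, Clic6 and Prlr, the 4 genes that passed the filter in the pIC, were called higher in the PVT under every alternative. The interaction called 0 of the 10 throughout, with Ttr from −3.12 to 0.08 and Slc4a5 from −1.39 to 0.79 without 1 library, the positive values being those without pIC STZ replicate 3. Correlation with Ttr called 4 of 9, 5 with plain CPM, 4 with a prior count of 0.5, 3 with deviations from group means, 0 with Spearman's rho, without the 2 farthest libraries or without the 3 libraries that stood apart, and 0 to 5 without 1 library (0 without control replicate 1, 2 or 4 or STZ replicate 1, 2, 3, 4 or 5). The cause of these changes in the number called was not tested. Leaving out 2 or 3 libraries also raises the smallest permutation p possible, so those counts of 0 cannot be compared with the 4 of 9. Numbers were not taken as pairing: deviations of STZ and control libraries of the same number correlated at −0.308 to 0.549, and those of PVT and pIC libraries of the same label at −0.126 to 0.275, with 4 of 10 PVT libraries closest to the pIC library of their label. With the replicate block 72 genes were called in the PVT and 240 in the pIC, 0 of the 10 genes in either and in the interaction. Depth limits the pIC values of Kcne2, Cldn2, Folr1, Aqp1, Slc4a5 and Otx2, which rest on 4 to 70 counts in a group.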
